A study of Homo sapiens with 2 samples.

Results

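The nuclear genes of oxidative phosphorylation were taken by symbol. They were protein-coding genes with symbols or stems used for subunits of respiratory complexes I to IV or of ATP synthase (complex V). The rule used the symbol stems NDUFA, NDUFB, NDUFC, NDUFS and NDUFV, UQCR, COX4 to COX8 and ATP5, together with CYC1 and SDHA to SDHD, and left out NDUFA4L2 and the NDUFAF assembly factors. It found 89 of the 33538 genes counted. By symbol, 38 were counted under complex I, 4 under complex II, 10 under complex III, 17 under complex IV and 20 under complex V. These include readthrough genes, so they are not counts of subunits. NDUFAB1, the acyl carrier subunit of complex I, lies outside these stems and is given with the other pathway genes. The rule itself uses symbols and no measured value, but it was chosen with earlier results of these data known.

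The cells were SH-SY5Y, an established human neuroblastoma line, untreated and unsynchronised, grown in high-glucose DMEM with pyruvate and 10% fetal bovine serum. One culture was split into 2 flasks, SplitA and SplitB, whose cells were tagged with Hashtag-1 and Hashtag-2 antibodies, pooled and sequenced in a single droplet experiment (10X Genomics 3' chemistry) that counted mRNA and hashtags. The GEO description writes both hashtags as Split 1, so the flask names follow the hashtag numbers and the study's text. Of 2879 cells, 2784 carried mainly 1 hashtag, and the 2094 of these with at least 1000 detected genes were used, 899 from SplitA and 1195 from SplitB. Their median depth was 5578 and 5794 unique molecular identifiers (UMIs), not counting the 13 genes for proteins that the mitochondrial genome encodes. The flasks share 1 culture and 1 library, and cells are not replicates, so no p-value is given, and all intervals are exact 95% Poisson intervals for counting error only. Of 12 noradrenergic neuroblast markers, PHOX2A reached 754 and 735 CPM (UMIs per 1000000 non-mitochondrial UMIs) in SplitA and SplitB and HAND2 349.9 and 351 CPM, while TH and MYCN lay under 5 CPM. The 7 mesenchymal markers summed to 9.22 and 13.6 CPM, the 3 Schwann cell markers to 1.13 and 1.51, and PTPRC and HBB had no UMI.

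Oxidative phosphorylation couples the oxidation of NADH and succinate to ATP synthesis in the inner mitochondrial membrane. Complexes I, III and IV pump protons as electrons pass to oxygen, complex II feeds in electrons from succinate, and complex V uses the proton gradient to make ATP. All but complex II combine subunits encoded in the nucleus with subunits encoded by the mitochondrial genome, so 2 separately transcribed genomes supply them. Cultured tumour cells in glucose-rich medium are known to make much of their ATP by glycolysis while keeping a working respiratory chain.

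Many nuclear genes of this pathway have promoters with sites for nuclear respiratory factor 1 (NRF1), for the ETS factor GABP (also called NRF2) and for YY1. RefSeq promoter windows (GRCh38.p14, 250 bases before to 50 after the start) matched 70 of the 89 genes. The core GCGCANGCG of the NRF1 motif, searched on both strands, stood in 22 of the 70 windows (31.4%), against 11.1% of 15265 protein-coding genes and 19.2% of the 1138 matched genes tested here. The ETS letters CCGGAAGT stood in 10 windows (14.3%, against 6.32% and 12.7%) and the YY1 letters AAGATGGC in 11 (15.7%, against 3.98% and 7.56%). A match describes these letters only, and binding was not measured. The 250 bases before the start of 3 members are shown because they hold the most matches among members with enough counts to test (NDUFB4) or different pairs of the motifs (ATP5PF and UQCR11), with complete matches in capitals. They lie at chr3:120596086-120596335 on the plus strand, chr21:25735055-25735304 on the minus strand and chr19:1605463-1605712 on the minus strand.
NDUFB4: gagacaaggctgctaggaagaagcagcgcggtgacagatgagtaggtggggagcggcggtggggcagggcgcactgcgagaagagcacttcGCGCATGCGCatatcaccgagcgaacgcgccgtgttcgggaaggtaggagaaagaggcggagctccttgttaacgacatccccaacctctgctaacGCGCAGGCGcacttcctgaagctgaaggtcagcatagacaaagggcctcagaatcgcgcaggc
ATP5PF: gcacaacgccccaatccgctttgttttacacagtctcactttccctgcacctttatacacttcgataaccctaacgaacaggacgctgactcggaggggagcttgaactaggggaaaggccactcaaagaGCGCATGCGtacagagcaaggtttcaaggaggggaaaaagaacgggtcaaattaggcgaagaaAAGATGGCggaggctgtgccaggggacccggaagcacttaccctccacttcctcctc
UQCR11: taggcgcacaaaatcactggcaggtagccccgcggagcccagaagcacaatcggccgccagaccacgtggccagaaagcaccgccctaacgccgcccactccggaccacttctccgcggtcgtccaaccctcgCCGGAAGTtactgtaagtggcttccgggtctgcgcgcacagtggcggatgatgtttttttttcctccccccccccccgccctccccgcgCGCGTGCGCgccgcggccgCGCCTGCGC
The NDUFB4 window held 4 NRF1 matches, of which the first and second overlap in a palindrome and the last runs past the start and is left in lower case. ATP5PF, a stalk subunit of ATP synthase, had 1 NRF1 match and 1 YY1 match. UQCR11, a small subunit of complex III, had 2 NRF1 matches and 1 ETS match. Levels of the 3 genes are given with their complexes.

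Together the 89 genes took 185445 UMIs, or 3.49% of the non-mitochondrial UMIs, in SplitA and 261069 UMIs, or 3.57%, in SplitB. A cell held a median of 196 and 206 of these UMIs. Complex V was the largest contributor with 1.10% and 1.14%, followed by complex I with 0.958% and 0.980%, complex IV with 0.839% and 0.859% and complex III with 0.568% and 0.578%. Complex II, whose 4 genes are all nuclear, took 0.0208% and 0.0211%. Of the 89 genes, 84 had at least 1 UMI, 79 averaged at least 0.1 UMI per cell and 66 averaged at least 0.5. The last limit was met by 1380 genes outside the mitochondrial genome, which are called the genes tested. Levels are given in CPM, and since 3' counting gives 1 tag per captured molecule whatever its length, they were not divided by length. No cell type lacking these genes was in the culture, so the share contributed by free RNA could not be measured.

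Among the genes counted under complex I, the NADH dehydrogenase, the 3 highest encode small subunits. NDUFA4, counted here by its symbol but now placed in complex IV, stood at 1139 CPM in SplitA and 1240 in SplitB. NDUFS5 stood at 841 and 860, and NDUFB2 at 760 and 747. NDUFA4 gave 6051 and 9056 of the 50889 and 71614 UMIs summed for complex I. Its part in the complex I values below was not tested. The lowest detected members were NDUFA9 with 21.5 and 23.3 CPM, NDUFS1 with 22.4 and 27.7 and NDUFA10 with 47.2 and 42.6. NDUFS1 carries iron-sulfur clusters of the electron path, while NDUFA9 and NDUFA10 are accessory subunits. The 7 nuclear core subunits, which carry the redox chemistry, had a median of 93.5 CPM, and 4 of them were among the genes tested. The other 30 detected complex I genes had a median of 264 CPM, and 25 were tested. The readthrough gene NDUFC2-KCTD14 had no UMI.

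Complex II, succinate dehydrogenase, was low throughout. The membrane anchor SDHC reached 134 and 139 CPM and was detected in 50.7% and 55.9% of cells. The iron-sulfur subunit SDHB stood at 41.4 and 38.3 CPM, the anchor SDHD at 18.8 and 21.2 and the flavoprotein SDHA at 14.5 and 12.2. SDHA gave 77 and 89 UMIs, so its interval of 11.4 to 18.1 CPM in SplitA overlapped that in SplitB.

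Complex III, which passes electrons from ubiquinol to cytochrome c, spanned a wide range. UQCRH, the hinge protein, stood at 1860 and 1877 CPM, UQCRQ at 1304 and 1360 and UQCR11 at 912 and 908. The core proteins UQCRC1 (50.6 and 56.9 CPM) and UQCRC2 (45.6 and 45.3 CPM) were more than 10-fold lower than these. The redox subunits CYC1 (148 and 147 CPM) and UQCRFS1 (111 and 103 CPM) lay between. UQCRHL, a near-identical retrocopy of UQCRH, had 37 and 55 UMIs, and how the counting treated reads common to this pair was not tested.

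Complex IV, cytochrome c oxidase, was led by COX7C (1198 and 1229 CPM), COX7A2 (1106 and 1178) and COX8A (1087 and 1100). Its subunits have tissue-specific isoforms, and in each pair the ubiquitous gene was the higher. COX4I1 stood at 845 and 839 CPM against 21.6 and 27.2 for COX4I2, known from lung and from low oxygen. COX6A1 stood at 889 and 884 CPM, whereas the muscle isoform COX6A2 had no UMI. The limit of 3 counts set for such a gene is 0.565 CPM in SplitA and 0.411 in SplitB. COX7A2 and COX7A2L (357 and 337 CPM) were detected, and the muscle isoform COX7A1 had no UMI. COX6B1 (775 and 825 CPM) and COX7B (463 and 497) stood against 7 and 3 UMIs for the testis isoform COX6B2 and none for the testis isoform COX7B2. COX8C, the testis counterpart of COX8A, had 3 and 6 UMIs. Of the 6 tissue-restricted isoforms, COX4I2 alone had over 10 UMIs in both flasks.

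Complex V held the highest level of all members. ATP5F1E, the epsilon subunit of the rotor stalk, stood at 2951 and 3084 CPM. ATP5MK followed with 948 and 976 CPM and ATP5MG with 908 and 925. The catalytic beta subunit ATP5F1B stood at 184 and 186 CPM and the alpha subunit ATP5F1A at 261 and 261, although each occurs in several copies per enzyme. ATP5PF stood at 721 and 738 CPM. The lowest were ATP5MGL with 8 and 11 UMIs, ATP5F1C with 101 and 95.4 CPM and ATP5PB with 102 and 99.8 CPM, and the readthrough gene ATP5MF-PTCD1 had no UMI. The 3 genes for the same mature c-ring subunit differed from each other beyond their counting intervals in both flasks, with ATP5MC2 at 713 and 719 CPM, ATP5MC1 at 322 and 322 and ATP5MC3 at 262 and 263.

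Across members the level went down with the length of the encoded protein, taken from GENCODE 44 canonical transcripts. The 42 detected members under 130 residues had a median of 580 and 589 CPM, the 25 of 130 to 250 residues 262 and 253 CPM, and the 17 over 250 residues 62.5 and 64.1 CPM. Over the 66 members tested, Spearman's rho between level and length was -0.71 in SplitA and -0.72 in SplitB, against -0.38 and -0.39 over the 1356 genes tested with a coding length. These are correlations across genes, which are not independent replicates.

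**Figure D1:**
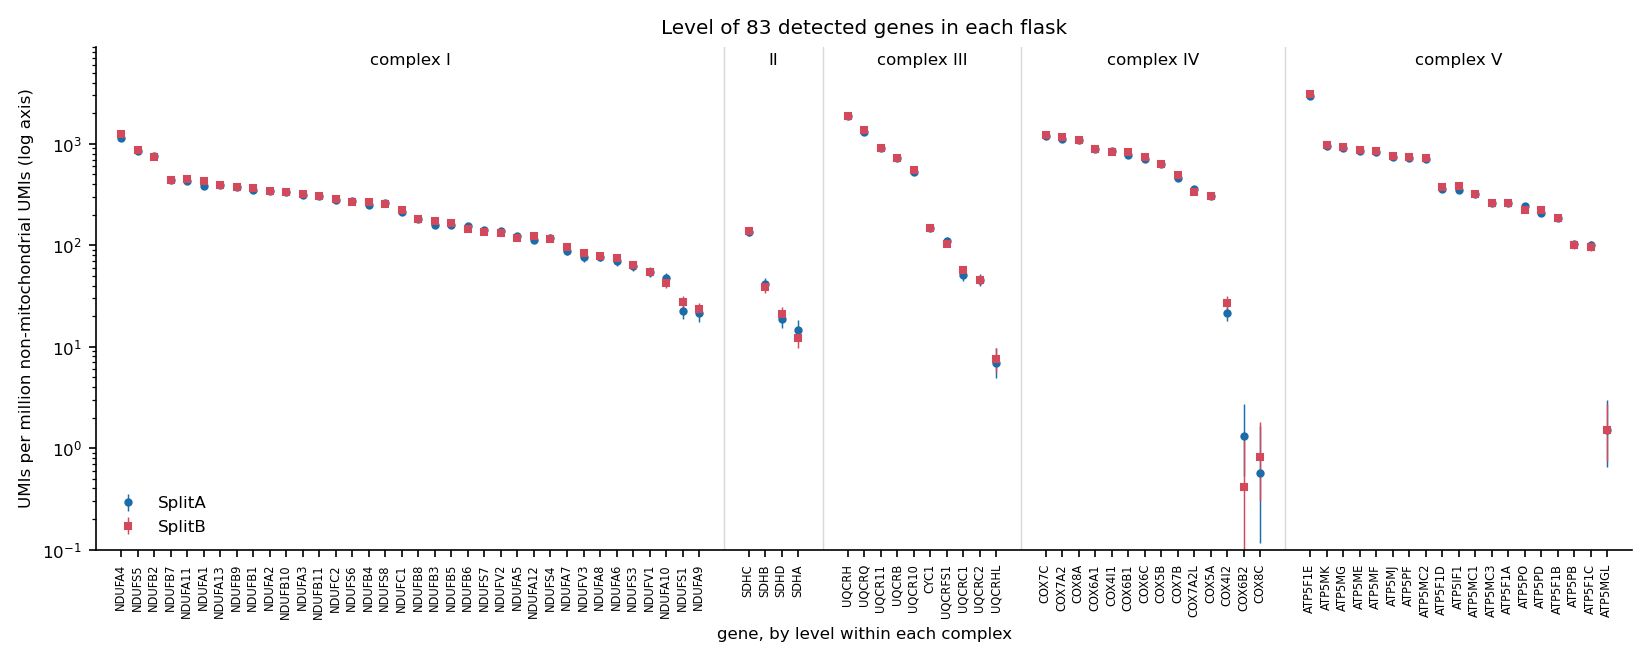
Level of 83 of the 84 members with a UMI, in CPM on a log axis, ordered by level within each complex. Circles are SplitA, squares SplitB and bars exact 95% Poisson intervals. Levels run from under 2 for COX6B2, COX8C and ATP5MGL to 2951 and 3084 for ATP5F1E, and the flasks nearly coincide.

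The flasks were compared to see how far separate growth moved these levels. None of the 66 members differed by 0.32 or more on the log2 scale, the limit used throughout, between SplitA and SplitB, where 4 of the 1380 genes tested did (0.29%). The log2 ratio of SplitA over SplitB ran from -0.14 for NDUFA7 to 0.11 for ATP5PO, with 43 members below 0 and 23 above. With 1 flask on each side, this is a value for these flasks and not a test.

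The spread across cells was set against counting noise. For each gene the squared deviation of its UMI count from the count expected at the cell's depth was divided by its binomial variance. This dispersion exceeded 1.2 in both flasks for 30 of the 66 members (45.5%), against 43% of all genes tested. How this reads depends on the genes admitted. Among genes averaging at least 0.1 UMI per cell it was 34 of 79 members against 18.1% of genes, with no limit on the mean 35 of 84 members against 8.28%, and with each cell thinned to 2000 UMIs 4 of 66 members against 14.3%. The median dispersion of the members was 1.22 in SplitA and 1.21 in SplitB, against 1.19 and 1.2 over all genes tested. In terms of the coefficient of variation (CV) left after counting noise was taken off, the members' median was 0.264 and 0.275, against 0.334 and 0.336. A member detected at a few UMIs per cell can hide a modest CV, so an unexceeded limit does not show an even level.

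Among the members with the largest extra CV were ATP5F1B (0.759 and 0.575), ATP5F1C (0.482 and 0.531), NDUFB8 (0.520 and 0.449) and CYC1 (0.475 and 0.454). These encode the catalytic beta and the gamma subunit of ATP synthase, an accessory subunit of complex I, and cytochrome c1. The smallest values belonged to NDUFA7, whose spread was below counting noise in both flasks, NDUFB7 (0.0455 and 0.187), NDUFA11 (0.152 and 0.143), NDUFS8 (below noise and 0.215) and NDUFA5 (0.234 and below noise). ATP5F1E stood out among abundant members, with 0.369 and 0.380, where UQCRH had 0.136 and 0.187.

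**Figure D2:**
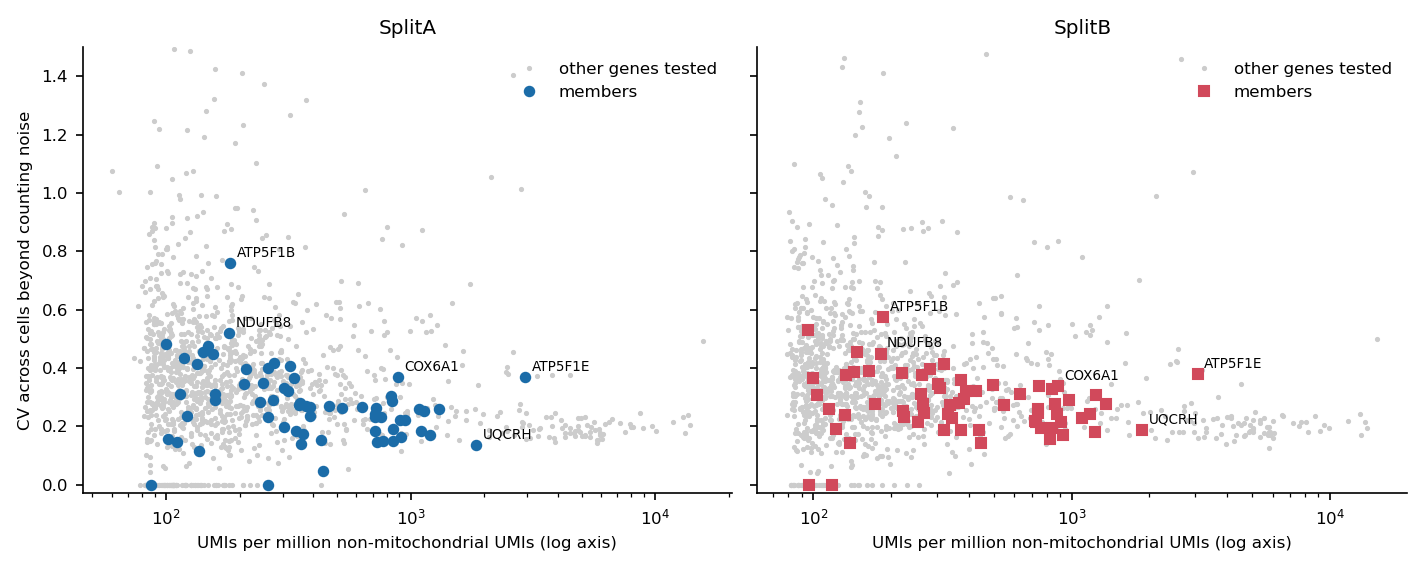
CV across cells beyond counting noise against level (CPM, log axis), with 1 panel per flask. Coloured points are 65 of the 66 members and grey points the other genes tested within the axis, and a value below counting noise is drawn at 0. ATP5F1B lies above 0.57 in both flasks, and most members between 0.1 and 0.5.

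The summed members varied between cells more than independent members would. The extra CV of their joint share was 0.144 in SplitA and 0.160 in SplitB, against 0.0449 and 0.0483 if each member had varied on its own. This was not particular to the members. Mitochondrial ribosomal protein genes had 0.160 and 0.158 against 0.0401 and 0.0422. Cytosolic ribosomal protein genes had 0.156 and 0.162 against 0.0260 and 0.0267, and proteasome subunits 0.383 and 0.356 against 0.110 and 0.112. The cytosolic ribosomal protein genes took 37.3% of the non-mitochondrial UMIs by which every share is divided. Their part in the joint spread of the members was not tested. To see which genes moved together, each member was correlated across cells with the sum of the other members. The median correlation was 0.18 in SplitA and 0.21 in SplitB, against 0.05 and 0.05 over all genes tested. It was at least 0.1 in both flasks for 48 of the 66 members, where 21.8% of the genes tested reached that value. The highest values were those of ATP5MF (0.46 and 0.50), a membrane subunit of ATP synthase, of NDUFA4 (0.40 and 0.44) and of NDUFB2 (0.34 and 0.40). ATP5F1A (-0.07 and -0.09) was negative in both flasks. Single genes of few UMIs give low correlations from counting noise alone, and cells share their depth, so the values are descriptive.

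The genes outside the rule with the highest correlation were CFL1 (0.43 and 0.44), PFN1 (0.40 and 0.45), GSTP1 (0.34 and 0.38), MYL6, CALM2, MICOS10, HINT1, SEC61G, SRP14 and SNRPD2, the last at 0.26 and 0.31. CFL1 and PFN1 encode the actin-binding proteins cofilin and profilin, and MICOS10 a subunit of the complex that shapes the cristae. Both values for CFL1 lay below those for ATP5MF. Averaged over the flasks, however, CFL1 (0.433) and PFN1 (0.425) lay above the member NDUFA4 (0.421), so such values were not confined to members. With counting noise taken off, the summed members correlated with the 78 mitochondrial ribosomal protein genes at 0.67 and 0.73 and with 50 assembly factors at 0.47 and 0.58. Outside the mitochondrion the correlation was 0.43 and 0.34 with 40 proteasome subunits, 0.18 and 0.06 with 17 glycolysis enzymes and -0.44 and -0.41 with the 97 cytosolic ribosomal protein genes. The last group alone took 37.3% of the non-mitochondrial UMIs in each flask, and the part of this shared total in the negative values was not tested.

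Pairs of complexes were correlated in the same way, over 899 and 1195 cells, leaving out complex II for its few UMIs. Complexes I and IV gave the highest value with 0.87 in SplitA and 0.88 in SplitB, followed by complexes III and V with 0.78 and 0.74. The pairs I and V (0.66 and 0.65), IV and V (0.61 and 0.61) and I and III (0.61 and 0.57) were lower. The pair III and IV was lowest with 0.53 and 0.52. Before counting noise was taken off the values ran from 0.20 for complexes III and IV in SplitA to 0.55 for I and IV in SplitB. The order of the first, second and last pair was the same in both flasks, while the pairs between them lay within 0.1 of each other. Over all cells, complexes I and IV went down with depth and complexes III and V went up, as given below. The part of depth in these correlations was not tested.

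**Figure D3:**
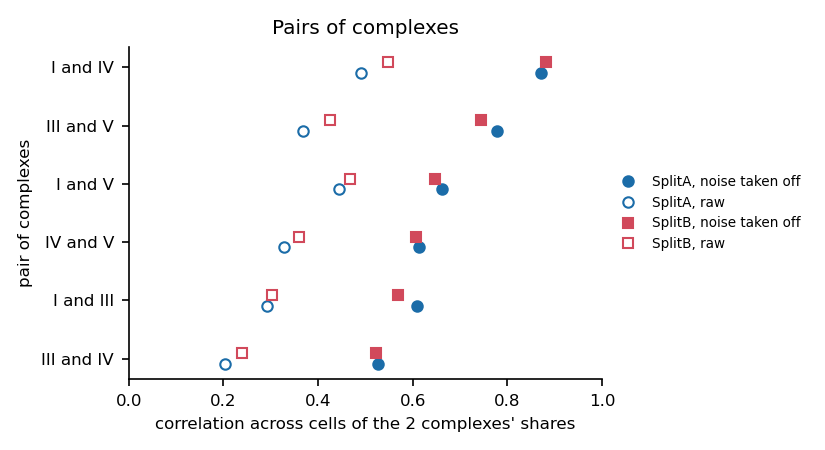
Correlation across cells between the summed shares of 2 complexes. Filled symbols have counting noise taken off, open symbols do not, circles are SplitA and squares SplitB. Complexes I and IV, at 0.87 and 0.88, and complexes III and V, at 0.78 and 0.74, lead the 6 pairs.

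The relation to RNA of the mitochondrial genome was examined because 4 of the 5 complexes draw on both genomes. The 13 mitochondrial genes took a median of 8.64% of a cell's UMIs in SplitA and 8.82% in SplitB, with single cells from 0.106% to 42.4%. MT-CO2, a catalytic-core subunit of complex IV, was the highest of them at 20352 and 20810 UMIs per 1000000 non-mitochondrial UMIs. For complex IV the 3 mitochondrial genes gave 6.16 and 6.18 UMIs for each UMI of the 17 nuclear genes. The ratio was 3.48 and 3.46 for complex I, whose mitochondrial genes number 7, 1.59 and 1.59 for complex III with MT-CYB alone and 0.693 and 0.702 for complex V with MT-ATP6 and MT-ATP8. Complex V was thus the one where nuclear UMIs outnumbered mitochondrial ones.

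Across cells, the members' share of non-mitochondrial UMIs was weakly and negatively related to the mitochondrial share of all UMIs, with Spearman's rho of -0.12 in SplitA and -0.17 in SplitB. Pearson's r was -0.14 and -0.24. In the quintile (20% of the cells of a flask) with most mitochondrial RNA the members took 3.44% in SplitA and 3.38% in SplitB, against 3.52% and 3.74% in the quintile with least. The log2 ratio was -0.04 (-0.06 to -0.01) and -0.15 (-0.16 to -0.13). The top quintile was also shallower, with a median of 4028 and 4197 non-mitochondrial UMIs against 5565.5 and 5890.0 in the bottom quintile. Glycolysis enzymes went from 0.585% and 0.591% to 0.692% and 0.624%, and cytosolic ribosomal proteins from 38.3% and 37.3% to 32.9% and 33.4%. With quintiles taken within quintiles of depth, the mean log2 ratio of the flasks was -0.10 against -0.09, and the mean rho within depth quintiles was -0.143 against -0.144. With all UMIs as denominator, which then holds the mitochondrial UMIs too, the mean rho was -0.322 and the mean log2 ratio -0.23. The part of the glycolysis and ribosomal protein genes in the relation was not tested.

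Among single members, 3 of the 66 were higher by at least 0.32 (log2) in the top quintile in both flasks, against 13.6% of the genes tested, and 1 was lower, against 3.48%. Among the higher members, ATP5F1B had a log2 ratio of 0.73 and 0.54 and ATP5F1A of 0.51 and 0.55. COX6A1 (0.52 and 0.30) missed the limit of 0.32 in SplitB. NDUFA5, an accessory subunit, was lower with -0.38 and -0.38. The log2 ratio was below 0 in both flasks for 44 of the 66 members, against 566 of the 1380 genes tested. The balance of these calls turned with the setting. SplitB on its own gave 3 members higher and 18 lower (18.5% and 15.5% of the genes tested), and SplitA 4 higher and 3 lower (19.1% and 8.55%). Without the 174 cells at 15% mitochondrial UMIs or more, none of the 66 was higher and 5 were lower, against 5.25% and 6.02% of the genes tested. Within quintiles of depth 1 was higher and 3 were lower (7.61% and 4.57% of the genes tested), and with all UMIs as denominator 3 were higher and 14 lower (8.84% and 16.2%).

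Binned by mitochondrial share, the complexes separated, and the joint share did not change in 1 direction along the bins. Below 5% it was 3.42% (3.27 to 3.57) in 10 cells of SplitA and 3.28% (3.18 to 3.38) in 23 cells of SplitB. From the 5 to 7.5% bin to the 10 to 15% bin the members' joint share went from 3.56% to 3.42% in SplitA and from 3.77% to 3.43% in SplitB. Complex I went from 1.01% to 0.901% and from 1.08% to 0.899% over these bins, whereas complex V stood at 1.11% and 1.11% in SplitA and 1.16% and 1.13% in SplitB. In the 15 to 30% bin, with 53 and 60 cells, the joint share was 3.47% and 3.48%. Complex I stood there at 1.10% (1.04 to 1.16) and 1.11% (1.06 to 1.16), above its value in the 7.5 to 10% and 10 to 15% bins, while complex III stood at 0.429% and 0.441%. Above 30% mitochondrial UMIs the joint share was 2.96% (2.77 to 3.16) in 17 cells of SplitA and 2.86% (2.75 to 2.98) in 44 cells of SplitB. There complex III took 0.304% and 0.286%, compared with 0.578% and 0.588% in the 7.5 to 10% bin, and complex V 0.755% and 0.712%, compared with 1.12% and 1.15%. Complex I (0.923% and 0.949%, compared with 0.949% and 0.968%) and complex IV (0.933% and 0.886%, compared with 0.833% and 0.853%) were not lower in the same way. Complexes III and V thus lay well below their level at 7.5 to 10% in both flasks, while the intervals of complex I overlapped it.

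The cells above 30% differed in much else. Their median depth was 1780.0 and 1835 non-mitochondrial UMIs, and cytosolic ribosomal proteins took 12.2% and 11.6% where the 7.5 to 10% bin had 38.2% and 38.1%. The nuclear RNA MALAT1 took 3.64% and 5.09% against 1.5% and 1.44%, and glycolysis enzymes 1.88% and 1.41% against 0.440% and 0.471%. The part of these differences in the members' values was not tested. Below 15%, in 829 and 1091 cells, rho between a complex's share and the whole mitochondrial share was -0.17 and -0.21 for complex I and -0.06 and -0.11 for complex IV. It was 0.03 and -0.00 for complex III and 0.02 and -0.01 for complex V. Against the mitochondrial genes of the same complex only, rho in these cells was -0.21 and -0.22 for complex I, -0.04 and -0.06 for complex IV, -0.02 and -0.05 for complex III and 0.02 and 0.03 for complex V. Within this range a cell's complex I mRNA from the nucleus thus went slightly down with its mitochondrial complex I mRNA, and the values of the other complexes lay between -0.06 and 0.03. This was not particular to complex I, since rho of glycolysis enzymes with the whole mitochondrial share was -0.24 and -0.20 in these cells. Complex I also had a rho of -0.21 and -0.16 with depth there, and the part of depth was not tested.

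**Figure D4:**
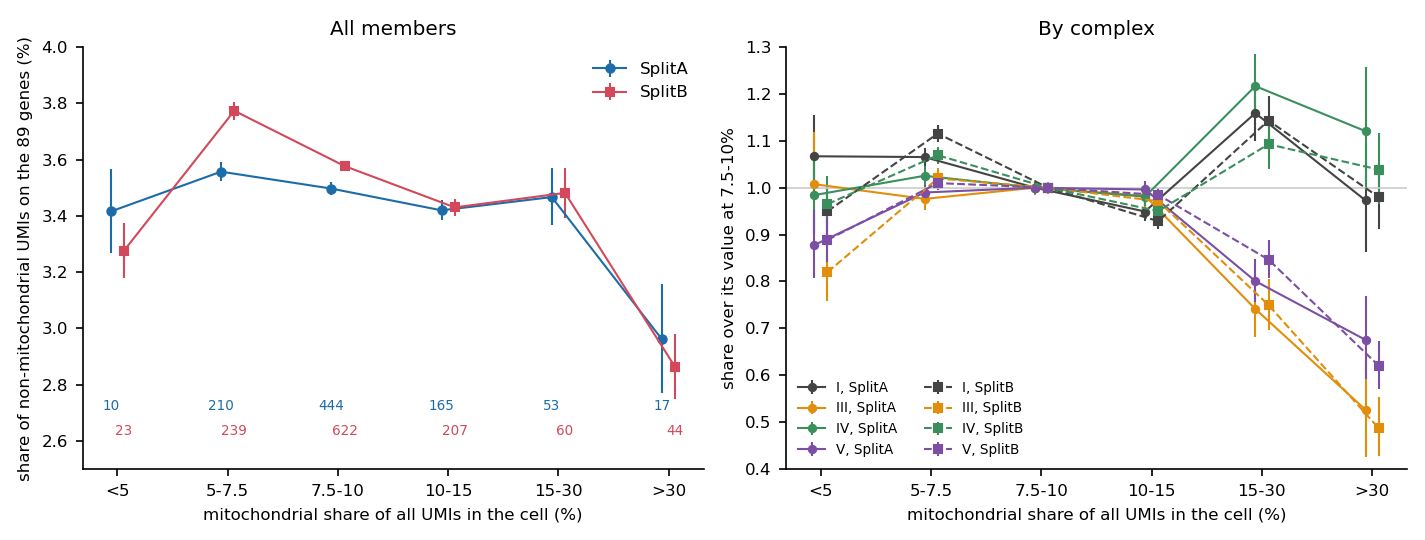
Left, share of non-mitochondrial UMIs on the 89 members (the axis does not start at 0) by the cell's mitochondrial share, with the number of cells under each point. Right, the share of complexes I, III, IV and V over its own value in the 7.5 to 10% bin. Bars are exact 95% Poisson intervals. Above 30% complexes III and V fall to between 0.4 and 0.8 of that value while complexes I and IV stay near or above 0.9.

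Cells were next ordered by depth, the number of non-mitochondrial UMIs in a cell. As a group the members differed little, with 3.36% of UMIs in the deepest quintile and 3.58% in the shallowest in SplitA, and 3.54% and 3.58% in SplitB. The complexes went different ways under this total. The log2 ratio of deepest over shallowest was -0.23 and -0.17 for complex I, -0.30 and -0.23 for complex IV and -0.47 and -0.67 for complex II. It was 0.17 and 0.26 for complex III and 0.07 and 0.17 for complex V. The median tested gene of complex V nevertheless had -0.22 and -0.10. In cells below 15% mitochondrial UMIs the summed ratio was -0.22 and -0.13 for complex I and -0.27 and -0.18 for complex IV. Complex III had 0.08 and 0.12 in those cells, and complex V -0.03 and 0.07, without a common direction. Of the 66 members, 6 (9.09%) were higher by at least 0.32 (log2) in the deepest quintile in both flasks, against 11% of the genes tested, and 21 (31.8%) were lower, against 28.7%, so members were called about as often as other genes. The median log2 ratio was -0.20 and -0.11 for members and -0.09 and -0.10 over all genes tested. The quintiles had median depths of 8810.0 and 3126 UMIs in SplitA and 9162 and 3102 in SplitB, and the shallowest quintile also had the higher median mitochondrial share, 10.3% in each flask against 8.85% and 8.91%. From the shallowest to the deepest quintile MALAT1 went from 1.95% to 1.49% in SplitA and from 2.16% to 1.37% in SplitB. Cytosolic ribosomal proteins went from 30.1% and 29.4% to 38.4% and 38.9%, glycolysis enzymes from 0.872% and 0.797% to 0.421% and 0.444% and proteasome subunits from 0.553% and 0.549% to 0.283% and 0.280%. The part of these genes in the values of the members was not tested. Shallow cells were also kept only if they reached the minimum of detected genes set for all cells. The part of that minimum in the composition of the shallowest quintile was not tested.

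Over all cells, the members higher in deep cells encode small proteins. These higher calls were not kept without the shallowest cells. In the 1900 cells with at least 3000 non-mitochondrial UMIs, 0 members were called higher and 16 lower. That limit was chosen after the data were seen, and its quintiles span a narrower range of depth. The values that follow are over all cells. ATP5F1E went from 2148 to 3337 CPM in SplitA and from 2142 to 3484 in SplitB, a log2 ratio of 0.64 (0.54 to 0.73) and 0.70 (0.62 to 0.78). UQCRQ (0.46 and 0.62), ATP5ME (0.52 and 0.54), ATP5MK (0.46 and 0.50), UQCR11 (0.39 and 0.47) and NDUFB1 (0.33 and 0.55) followed. The members that were lower included the alpha and beta subunits and some stalk subunits of ATP synthase. Of the other stalk subunits, ATP5F1E was higher, as given above. ATP5PF (0.20 and 0.30), ATP5F1D (-0.27 and 0.14) and ATP5PD (-0.49 and -0.28) were not called. ATP5F1B went from 475 to 138 CPM in SplitA and from 399 to 138 in SplitB, a log2 ratio of -1.78 (-2.04 to -1.52) and -1.53 (-1.77 to -1.30). ATP5F1C (-1.32 and -1.24), NDUFB6 (-1.28 and -0.93), COX6A1 (-1.13 and -1.06), CYC1 (-0.83 and -1.06), NDUFB8 (-1.01 and -0.72), ATP5F1A (-0.84 and -0.83), ATP5PB (-0.85 and -0.72) and NDUFC2 (-0.56 and -0.78) were next.

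These ratios went down with protein length, a comparison that was not among those fixed at the start. All 7 tested members over 250 residues were among those lower in deep cells, with a median log2 ratio of -0.85 in SplitA and -1.06 in SplitB, where the 566 genes tested of that length had -0.29 and -0.34. The 22 members of 130 to 250 residues had a median of -0.42 and -0.35, with 10 lower and 0 higher, against -0.07 and -0.07 over 486 genes. The 37 members under 130 residues had -0.07 and 0.02, with 6 higher and 4 lower, against 0.13 and 0.17 over 304 genes. Spearman's rho between the ratio and length was -0.74 in SplitA and -0.72 in SplitB over the 66 members, and -0.35 and -0.42 over the 1356 genes tested. With mRNA length in place of protein length rho was -0.37 and -0.37 for the members. Protein length also went with level in these 66 members, with rho of -0.71 and -0.72. The part of level in the depth ratios was not tested.

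Fewer genes passed the depth limit without the cells rich in mitochondrial RNA, members and others alike. Below 15% mitochondrial UMIs, 16 members passed it, 1 higher and 15 lower, where 22.4% of the genes tested passed in either direction, compared with 27 members and 39.7% over all cells. There rho with protein length was -0.51 and -0.59. In these cells ATP5F1B had a log2 ratio of -0.76 and -0.72, ATP5F1C of -0.98 and -0.81, NDUFB6 of -1.21 and -0.90 and COX6A1 of -0.52 and -0.43. ATP5F1E (0.29 and 0.40), ATP5F1A (-0.38 and -0.17) and CYC1 (-0.04 and -0.58) missed the limit in 1 flask. Depth quintiles taken within each quintile of mitochondrial share, which were added once results had been seen, gave 4 higher and 19 lower, against 27.5% of the genes tested in either direction. Levels scaled to the median gene gave 8 higher and 16 lower, against 39.2%.

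**Figure D5:**
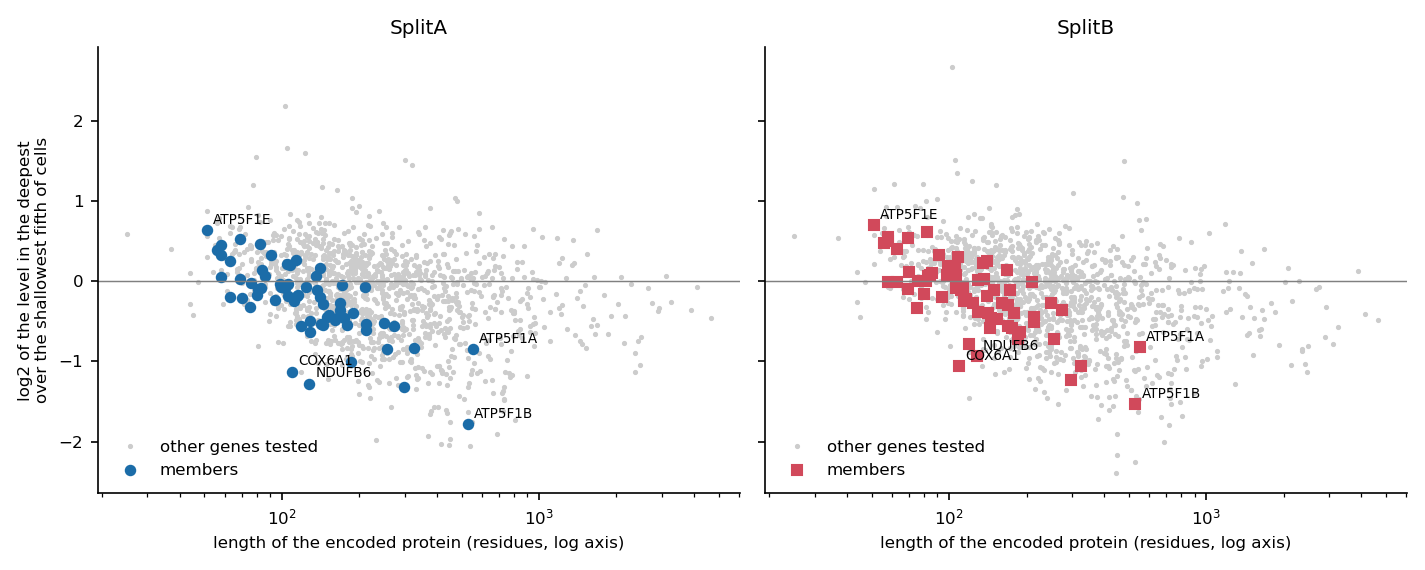
Log2 ratio of the level in the deepest over the shallowest quintile of cells against the length of the encoded protein (log axis), with 1 panel per flask. Coloured points are 65 of the 66 members and grey points the other genes tested with a coding length. Members slope from ATP5F1E, at 0.64 and 0.70, down to ATP5F1B, below -1.5 in both flasks, and COX6A1 and NDUFB6 lie below members of like length.

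Cells were last ordered by their share of UMIs on known S and G2/M phase genes, since the culture was not synchronised. The members together did not move much between the quintile with most and the quintile with least cell cycle RNA. Their log2 ratio was -0.03 (-0.05 to -0.00) and -0.02 (-0.03 to 0.00). Under this total complex I had 0.09 (0.05 to 0.13) and 0.12 (0.08 to 0.15). Complex V had -0.11 (-0.15 to -0.08) and -0.12 (-0.15 to -0.08), and complexes III and IV lay between these. At the log2 limit of 0.32, 7 of the 66 members were higher in both flasks, against 29% of the genes tested, and 2 were lower, against 13.7%. Those higher, on the log2 scale, included ATP5F1B (0.91 and 0.73), NDUFS6 (0.50 and 0.53), CYC1 (0.49 and 0.49), NDUFC1 (0.59 and 0.33), COX8A (0.39 and 0.41) and NDUFB9 (0.35 and 0.36). ATP5MC2 (-0.41 and -0.50) and UQCRB (-0.46 and -0.41) were lower. Scaled to the median gene, which itself moved by 0.08 and 0.12, the counts were 4 higher and 4 lower, against 43.9% of the genes tested in either direction.

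The other genes of the pathway give the setting. CYCS, cytochrome c itself, stood at 359 and 382 CPM and was higher with cell cycle RNA (1.11 and 0.96). NDUFAB1 stood at 234 and 236 CPM and NDUFA4L2, a paralogue of NDUFA4, at 42.9 and 47.2. Of 50 assembly factors, 49 had a UMI and 14 were tested, with a median of 36.6 CPM over all 50. By depth 6 of the 14 were higher, against 11% of the genes tested, and 1, FMC1, was lower (-0.54 and -0.33), against 28.7%. Among the higher were NDUFAF8 (0.92 and 0.94) and COX17 (0.59 and 0.92), the copper chaperone of complex IV. By mitochondrial share 0 of the 14 passed the limit in either direction in both flasks, against 13.6% higher and 3.48% lower. By cell cycle RNA 4 were higher and 2 lower, against 29% and 13.7%, about as often as other genes. Of 14 regulators, YY1 was the only one tested, at 88.8 and 79.3 CPM. TFAM, which packages mitochondrial DNA, stood at 45.7 and 39.8 CPM, ESRRA at 19.4 and 18.3, NRF1 at 6.40 and 4.79 and GABPA at 5.84 and 6.98. The coactivator PPARGC1A had no UMI (limit of 3 counts, 0.565 and 0.411 CPM), and PPARGC1B had 1 UMI in each flask.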

How the data were processed

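The authors sequenced an mRNA library and a hashtag library and made 1 table of raw UMI counts of genes and hashtags by cell. The submitters' processing notes name STAR 2.7, Cell Ranger 4.0.0 and the build hg38 (GRCh38), and the annotation version is not given in the sources used here. Symbols, gene types and lengths came from GENCODE 44 and the supplied name table, and 425 genes without a symbol held 0.0371% of UMIs. A cell was assigned to a flask when 1 hashtag was at least 3 times the other and the other at most 185. The 95 multiplets were left out, and doublets within a flask were not called.

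Counts were summed per flask and divided by non-mitochondrial UMIs, with no pseudocount. Cells were split into quintiles within each flask, and a gene was called when it passed 0.32 on the log2 scale in the same direction in both. A gene without a UMI was given the limit of 3 counts. Levels of readthrough and near-identical genes are uncertain, since how the counting treated reads that match more than 1 gene was not tested. Intervals and limits cover counting error only. Ratios, dispersion and noise-corrected correlations were computed in Python 3.11.15 with numpy 2.4.6 and scipy 1.17.1 and tested on simulated data. The members and lists were chosen with earlier results of these data known. Named were the 3 highest and lowest genes of each complex, the isoform groups, the 5 largest and smallest extra CVs and up to 10 genes per comparison. Alternatives changed the hashtag limit, cells, denominator, low-count limit, fold, scale, depth strata and UMI thinning. Counts and sums cover every member, but 1 member met by this rule and 1 marker are not reported here by name, and that member is not plotted.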

Additional observations from a re-analysis of the deposited data

How the results depend on the processing

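Of 94 alternative values, 63 stayed within 1.5 times a count or 1 SD of the flasks. With 1 flask left out, a share, CV, correlation or log2 ratio lies within that SD by construction. Such values in the 63 therefore say nothing about stability. The correlations and log2 ratios kept their sign. The balance of 3 members higher and 1 lower by mitochondrial share turned in several settings. These were cells under 15% mitochondrial UMIs, depth quintiles, all UMIs as denominator and SplitB alone. Cells under 15% mitochondrial UMIs gave 0 members higher and 5 lower by mitochondrial share and 16 apart by depth. Of the genes tested there, 5.25% were higher, 6.02% lower and 22.4% apart by depth. In these cells the correlation of the members with mitochondrial RNA was -0.101 and the median correlation between complexes 0.661. That last correlation was 0.662 with a hashtag limit of 100 and 0.727 without the deepest 5% of cells. With all UMIs as denominator the members took 3.20%, the correlation with mitochondrial RNA was -0.322 and the log2 ratio by mitochondrial share -0.23. On that denominator 14 members were lower, against 16.2% of the genes tested. With a limit of 0.1 UMI per cell, 9 of 79 members were higher by mitochondrial share, 1 differed between flasks and 14 were apart by cell cycle RNA. Over all genes admitted the shares were 26.9%, 3.64% and 47.8%. With no limit the counts were 10, 3 and 16 of 84 members, against 18.9%, 22.6% and 30.1% of genes. At 1.5-fold the counts were 1 higher and 0 lower by mitochondrial share, 10 by depth and 2 by cell cycle RNA. In the same order, 5.58%, 0.145%, 18.2% and 21.3% of the genes tested passed. Scaled to the median gene 0 members were lower by mitochondrial share and 4 higher, and within depth quintiles 1 was higher and 3 lower. The genes tested gave 2.68% lower and 14.9% higher on that scale, and 7.61% higher and 4.57% lower within depth quintiles. Thinned to 2000 UMIs (95 shallower cells left out), 4 members had a dispersion over 1.2, against 14.3% of the genes tested. The extra CV of the summed members was then 0.140 and their correlation with mitochondrial RNA -0.0892. Thinning lowers the dispersion of a gene by its construction. Without replicate 1 (SplitA), 18 members were lower by mitochondrial share and 16 apart by cell cycle RNA, against 15.5% and 53.8% of the genes tested. Without replicate 2 (SplitB) the counts were 3 and 11, against 8.55% and 51.7%. In cells with at least 3000 non-mitochondrial UMIs, chosen after the data were seen, 16 members were apart by depth, 0 higher and 16 lower, 12 of them also lower over all cells. Of the genes tested, 22% were apart by depth in those cells. Causes of other changes were not tested. No paired analysis was possible because the flasks carry 1 number each. Depth limits the 23 members under 0.5 UMI per cell to levels.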
